A study of Mus musculus with 30 samples.

Results

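Mitosis genes were examined as a group of 34 named genes, fixed as a list by gene symbol and found in all 14 RNA-seq libraries of mouse brain endothelial cells (ECs) and of the GFP-negative cells sorted away from them. All 34 symbols matched 1 gene each among the 21847 protein-coding genes of the transcript annotation. The study asked how the transcripts and open chromatin of brain ECs change over 8 days in culture, and whether stabilized beta-catenin alters that change. The freshly isolated samples were of 2 kinds, each with 2 libraries, namely acutely isolated GFP-positive ECs and GFP-negative cells from adult male Tie2-GFP mice, in which the Tie2 promoter drives GFP in ECs. The cultures came in 6 WT and 4 beta-catenin stabilized wells.

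The 6 WT wells belong to 3 experiments of 2 wells each, and all cells came from adult male mice. Wells 1 and 2 held ECs of C57BL/6J mice isolated with papain (method A). Wells 3 and 4 and wells 5 and 6 held ECs of Ctnnb1flex3/+;Tie2-GFP mice isolated by Dounce homogenization and collagenase/dispase (method B). These mice carry a beta-catenin allele with an excisable exon but no Cre. The Ctnnb1flex3/+ control mice and the stabilized mice had received 4-hydroxytamoxifen as pups. The libraries of wells 3 and 4 were made at another facility and read for 150 cycles, and those of the other 8 cultures for 36 cycles. The acute and GFP-negative libraries were read for 75 cycles. The study read the acute EC libraries from 1 end and the culture libraries from both ends. Culture and read format therefore cannot be told apart in the comparisons with acute ECs. The stabilized wells held ECs of Ctnnb1flex3/+;Pdgfb-CreER;Tie2-GFP mice, in which an endothelial Pdgfb promoter drives the Cre that removes this exon, with wells 1 and 2 isolated by method A and wells 3 and 4 by method B. Every culture was selected with puromycin and started from the pooled brains of several mice, so wells of 1 experiment share their animals. The 36-cycle WT experiments differ from each other in isolation method and mice, the method B experiments differ in facility and read length, and the 150-cycle and method A wells differ in all of these, so that the factors within each pair of experiments cannot be told apart. The sources also conflict on WT wells 5 and 6. The methods text of the study assigns them to method B, as used here, and the labelled genotype matches it, but a legend assigns to method A every WT sample not processed at the other facility. All values given for 36-cycle method B WT wells, and the comparison of methods, rest on the methods text. Stabilized well 4 is titled as RNA-seq but its molecule is labelled as genomic DNA, and its deposited values are transcript abundances like those of the other wells. Between stabilized and WT cultures of method A, the strain background, the Ctnnb1flex3 allele and Tie2-GFP differ as well as Cre. Whether the C57BL/6J mice also received 4-hydroxytamoxifen is not clear from the sources.

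Mitosis genes are transcribed mainly in the G2 and M phases of the cell cycle, and their proteins drive chromosome condensation, spindle assembly, the checkpoint that holds cells before anaphase, and cytokinesis. Their transcripts are scarce in quiescent cells, and ECs of the adult brain are largely quiescent in vivo. Many of these genes share promoter elements, among them the CCAAT box, bound by NF-Y, and the cell cycle genes homology region (CHR), bound by the MuvB complex, which recruits repressors in quiescence and activators in G2. The 34 genes were sorted into 6 roles: 6 kinases or cyclins, 8 spindle checkpoint or kinetochore components, 5 spindle motors or microtubule factors, 9 chromosomal passenger or cytokinesis factors, 3 chromosome structure genes and 3 genes of protein degradation.

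Abundance is given in TPM, a relative unit which corrects for transcript length and is scaled over all transcripts of a library. Protein-coding genes held only 36.3% to 65.0% of the TPM of the acute, GFP-negative and 36-cycle libraries, but 94.8% and 94.7% in wells 3 and 4. Levels of wells 3 and 4 are therefore not on the same scale as the others, and summed levels are also given after rescaling to protein-coding genes. The libraries held 24284843 to 94686456 estimated reads. Of 8 endothelial markers, all were detected in each EC library, with a summed level of 2225 to 7085 TPM against 101 and 109 TPM in the GFP-negative cells. Astrocyte markers (3.81 and 21.6 TPM in sum) and hemoglobin transcripts (0.329% and 2.13% of reads) were both higher in the second acute library than in the first. The 4 pericyte markers summed to 244 and 354 TPM in acute ECs, to 222 and 446 TPM in GFP-negative cells and to 2.25 to 12.4 TPM in the 10 cultures, and all 4 were lower in WT culture than in acute ECs by the test used below. The part of these cells in the differences between culture and acute ECs was not tested. In bulk samples such as these, a higher level may mean more cells that express a gene or more RNA per cell, and these cannot be told apart.

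In the acutely isolated ECs the mitosis genes were close to absent. Their levels summed to 9.61 and 26.3 TPM over all 34 genes, and 29 of the 34 were below 1 TPM in both libraries. In the WT cultures the sum was 155 and 241 TPM in the method A wells, 421 and 469 TPM in the 150-cycle method B wells, and 64.3 and 65.6 TPM in the 36-cycle method B wells. The stabilized wells had sums of 301 and 323 TPM with method A and of 93.7 and 97.9 TPM with method B. All 10 cultures lay above both acute libraries. After rescaling to protein-coding genes the sums were 23.0 and 51.2 TPM in acute ECs, 427 and 512 in the WT wells of method A, 444 and 496 in the 150-cycle wells, and 158 and 151 in the 36-cycle method B wells. On that scale the experiments of method A and of 150 cycles had the same mean (470 TPM each) and the 36-cycle method B cultures stood 3.04-fold below both.

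**Figure D1:**
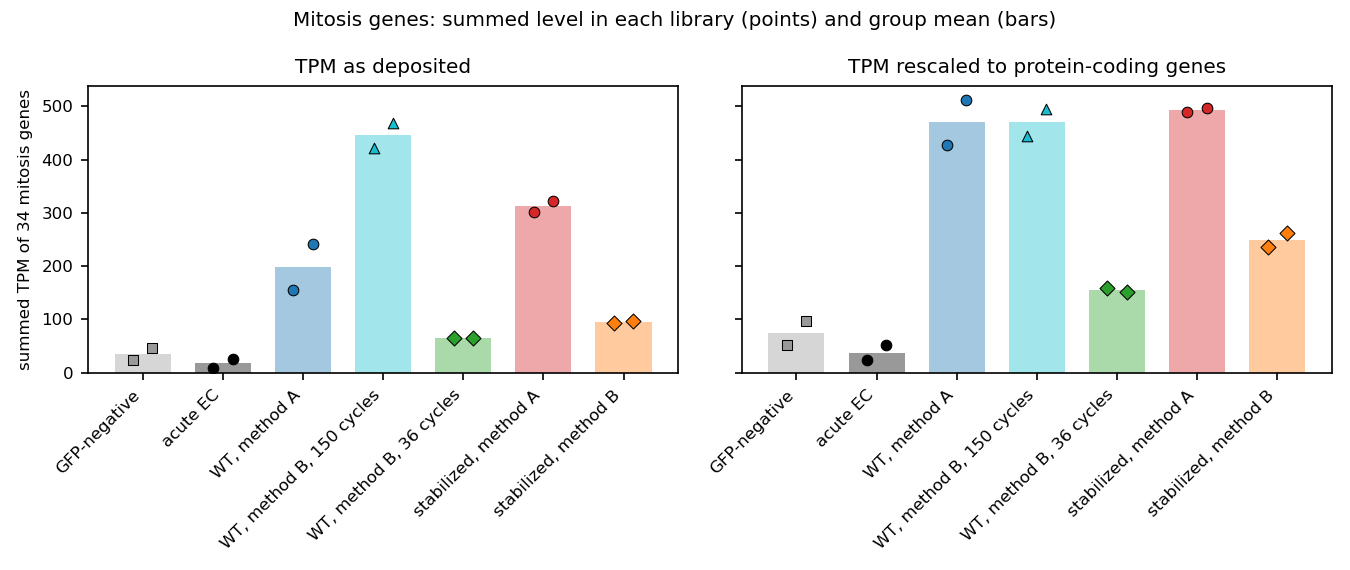
Summed TPM of the 34 mitosis genes in each RNA-seq library (points) with the mean of each pair (bars), as deposited (left) and rescaled to protein-coding genes (right). The acute ECs sit at 9.61 and 26.3 TPM on the deposited scale and every culture sits at 64.3 TPM or more; the 36-cycle method B wells are the lowest cultures on both scales.

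Kinases and cyclins gave the clearest contrast between acute and cultured cells. Cdk1 (chromosome 10, 69335146 to 69352938, minus strand, GRCm38), the catalytic partner of the mitotic cyclins, was at 0.170 and 0.937 TPM in the acute libraries. In the 6 WT wells it ranged from 4.17 through a median of 25.5 to 51.3 TPM. No WT well overlapped the acute libraries, and the 36-cycle method B wells were the lowest. The log2 fold change of Cdk1 was 5.97 (SE 1.02, edgeR adjusted p = 0.00195). Ccna2 (chromosome 3, 36564865 to 36572150, minus strand), cyclin A2, rose from 0.0466 and 0.434 TPM to between 1.90 and 28.3 TPM with a median of 12.4 TPM. All 6 members of this role, which includes the B-type cyclins Ccnb1 and Ccnb2 and the kinases Aurka and Plk1, passed the test, with a median log2 fold change of 5.90.

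Across all roles, 28 of the 34 members were higher in WT cultured than in acute ECs and none was lower, where 22.9% of the 13798 genes tested were higher. A gene was counted here when its adjusted p in edgeR's quasi-likelihood test was under 0.05 and its change was more than 2-fold. The median log2 fold change was 4.98 over the members and 0.10 over all genes tested. The member without reads in acute ECs lay above this median also at its lower bound, so that bound could not move it. For 30 members the 6 WT wells did not overlap the 2 acute libraries in deposited TPM, against 32.1% of all genes in that direction. Cenpe was among these members but overlapped after rescaling to protein-coding genes. The study required 5 TPM in both biological replicates. Here the rule was applied to every well of the higher group, which is stricter for the 6 WT wells. Among the members only Anln (chromosome 9, 22332012 to 22389188, minus strand) then counted, because no other member reached 5 TPM in all 6 WT wells. By that rule 13.5% of all genes were higher and 10.2% lower. Anln went from 0.00483 and 0.136 TPM to between 7.02 and 23.1 TPM (log2 fold change 9.70, SE 1.05, edgeR adjusted p = 0.000272). Taken by experiment, 9 members reached 5 TPM as deposited in both method A wells, 22 in both 150-cycle wells and 1 in both 36-cycle method B wells. On TPM rescaled to protein-coding genes these counts were 27, 23 and 6 in the same order.

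Aurkb (chromosome 11, 69045647 to 69051664, plus strand), the kinase of the chromosomal passenger complex, had no reads in either acute library and 1537 reads over the WT wells. Set against a floor of 3 reads over both acute libraries, it was at least 385-fold higher in culture. The checkpoint kinase Bub1, its partner Bub1b and the cyclin Ccnb2 each had 1 read over the 2 acute libraries. For Ccnb2 the 2029 reads in culture gave a ratio of 1317 after scaling to library size, with an exact 95% counting interval from 236 to 52043. Reads from PCR-amplified libraries are not independent molecules, so such intervals and floors cover counting error only.

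Of the genes of protein degradation, Ube2c (chromosome 2, 164769898 to 164778822, plus strand), the E2 enzyme of the anaphase-promoting complex, was at 0.567 and 0 TPM in acute ECs and at 3.27 to 62.7 TPM in WT culture with a median of 11.6 TPM. Its activator Cdc20 was at 0.547 and 0.283 TPM against 2.49 to 38.5 TPM, with a median of 9.40 TPM. Both had their 2 highest values in the 150-cycle wells, and neither overlapped the acute libraries. Log2 fold changes were 5.07 for Ube2c (SE 1.69, edgeR adjusted p = 0.0359) and 4.57 for Cdc20 (SE 0.86, edgeR adjusted p = 0.00310). Birc5, the survivin subunit of the chromosomal passenger complex, ranged from 2.02 through a median of 6.40 to 37.9 TPM in WT culture and was at 0.0433 and 0 TPM in acute ECs.

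Among kinetochore and spindle genes, 6 of 8 and 4 of 5 members were higher in culture. Spc25, a subunit of the NDC80 kinetochore complex, was at 0.435 and 0 TPM in acute ECs and at 2.13 to 20.1 TPM in WT culture, with a median of 5.99 TPM. Bub1 had 0.00199 and 0 TPM against 0.757 to 4.54 TPM with a median of 2.96 TPM. Tpx2, which activates Aurora A on the spindle, had 0.695 and 1.32 TPM against 1.59 to 6.93 TPM with a median of 4.88 TPM. The gap was narrow for Tpx2, whose lowest wells stood just above the higher acute library, and wide for Spc25 and Bub1. On transcripts annotated as protein-coding the gap of Tpx2 was wide too, with 0.0170 and 0.0482 TPM in acute ECs against 1.59 to 6.93 TPM. Top2a (chromosome 11, 98992943 to 99024189, minus strand), the topoisomerase that untangles chromosomes, rose from 0.151 and 0.284 TPM to between 2.44 and 20.4 TPM with a median of 6.21 TPM, and its log2 fold change was 5.61 (SE 1.25, edgeR adjusted p = 0.00678). Ncapg, a condensin subunit, was at 0.0155 and 0 TPM in acute ECs and at 0.515 to 3.44 TPM in WT culture with a median of 2.1 TPM, again without overlap.

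**Figure D2:**
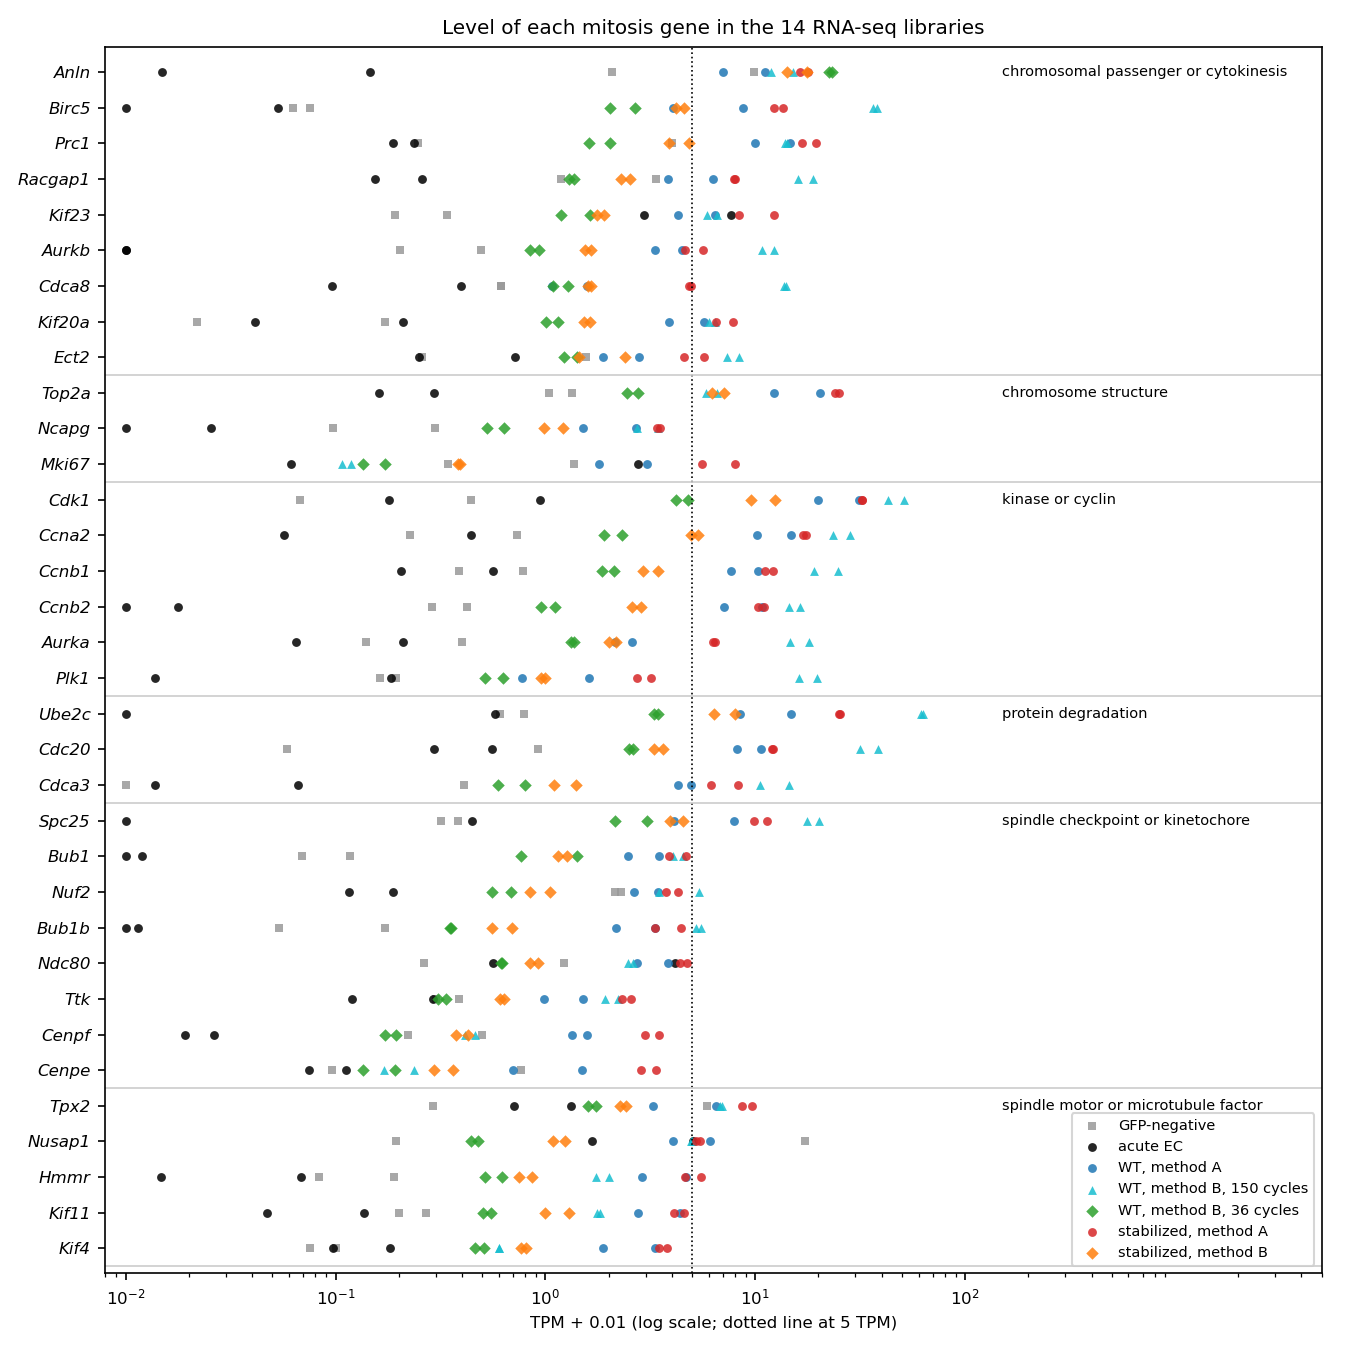
Deposited TPM plus 0.01 (log axis) of each mitosis gene in each of the 14 libraries, grouped by role, with the dotted line at 5 TPM. Acute ECs (black) lie left of the cultures for 30 of the 34 genes when compared with the WT wells, with Kif23, Ndc80, Nusap1 and Mki67 as the exceptions.

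The 6 members that missed the test between WT culture and acute ECs were Cdca8, Cenpe, Kif23, Mki67, Ndc80 and Nusap1. Mki67 (chromosome 7, 135689784 to 135716361, minus strand), which encodes the proliferation antigen Ki-67 that coats mitotic chromosomes, was at 0.0515 and 2.76 TPM in the acute libraries. Its WT culture values were 1.78 and 3.03 TPM with method A, 0.0973 and 0.109 TPM in the 150-cycle wells, and 0.162 and 0.125 TPM in the 36-cycle method B wells. Only the method A wells were in the range of the second acute library, and the log2 fold change was 1.17 (SE 1.73, edgeR adjusted p = 0.604). That acute library held 493 reads of Mki67 and the first held 85, while the 150-cycle wells held 20 and 24.

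Kif23, a motor of the central spindle, had the smallest fold change. It was at 2.94 and 7.64 TPM in acute ECs and at 1.18 to 6.54 TPM in WT culture (median 5.09 TPM), with overlapping groups and a log2 fold change of 0.26 (SE 0.54, edgeR adjusted p = 0.717). Ndc80, the kinetochore subunit that binds microtubules, had 0.556 and 4.13 TPM against 0.602 to 3.84 TPM. Nusap1, which bundles spindle microtubules, had 1.66 and 5.06 TPM against 0.433 to 6.11 TPM. Part of these acute levels lay on transcripts that are not annotated as protein-coding. Of the reads assigned to Kif23 in the acute libraries 38.1% lay on protein-coding transcripts, for Ndc80 the share was 19.3% and for Nusap1 it was 76.4%. Over all members the share was 72.9% and 61.3% in the acute libraries and 97.3% to 99.3% in the cultures. On protein-coding transcripts alone, Ndc80 stood at 0.334 and 0 TPM in acute ECs, Kif23 at 0.875 and 1.07 TPM and Nusap1 at 0.0198 and 0.589 TPM. In WT culture these transcripts stood at 0.581 to 3.72 TPM for Ndc80, 0.753 to 5.04 TPM for Kif23 and 0.433 to 6.11 TPM for Nusap1. Only Ndc80 was then without overlap, and Kif23 and Nusap1 still overlapped. The 2 remaining members, Cdca8 of the passenger complex and the kinetochore motor Cenpe, did not overlap between WT culture and acute ECs in deposited TPM. After rescaling to protein-coding genes Cenpe did overlap, with 0.156 and 0.198 TPM in acute ECs and 0.170 TPM in WT well 3. As deposited, Cdca8 had 0.0857 and 0.385 TPM in acute ECs and 1.07 to 14 TPM in culture, and Cenpe had 0.065 and 0.102 TPM against 0.125 to 1.49 TPM. They had log2 fold changes of 1.80 (SE 0.85) and 1.85 (SE 1.27).

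In the stabilized cultures 30 of the 34 members were higher than in the same acute libraries and none was lower, with 24.5% of 13904 genes higher. The members had a median log2 fold change of 4.89, against 0.04 over all genes. In deposited TPM, 30 did not overlap the acute libraries, where 38.7% of all genes lay wholly above. Cdk1 had 32.3 and 32.4 TPM in the method A wells and 9.53 and 12.4 TPM in the method B wells, all above the acute libraries. Its log2 fold change was 5.86 (SE 0.43, edgeR adjusted p = 0.000174). Kif23, Mki67, Ndc80 and Nusap1 again missed the test. With the 5 TPM minimum, Anln, Cdk1, Top2a and Ube2c counted, where 15% of all genes did. This comparison shares its acute libraries with the one above.

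Other lists of cell cycle genes are read against the 22.9% of all genes that were higher and the 20.5% that were lower in WT culture. Of 73 other genes with a mitotic role, 44 were higher and 2 lower, with a median log2 fold change of 3.27. The largest fitted changes were those of Gtse1, Psrc1 and Pbk, which were listed at 0 TPM in both acute libraries. The 2 that fell were Cit, a kinase of the midbody (-3.08), and Lin9, a subunit of MuvB (-2.27). Of 25 S-phase genes, 18 were higher and none lower, led by Ccne1, Tk1 and Cdc6, which were each at 0 TPM in at least 1 acute library, with a median of 2.82. Among 24 genes for the core of the anaphase-promoting complex and for mitotic proteins that nearly all cells express, 8 were higher and 5 lower, with a median of 0.03. The lists were not tested against each other. The 5 that fell were Rad21, Smc3, Smc1a and Stag1, which encode cohesin subunits, and Numa1, a spindle pole protein. Ube2s, the E2 enzyme that extends ubiquitin chains, rose most in that list (2.59).

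Between acute ECs and GFP-negative brain cells the share of members that were lower in ECs was near that of all genes. The sums were 9.61 and 26.3 TPM in acute ECs and 24.1 and 45.9 TPM in GFP-negative cells. Of 32 members tested, 7 were lower in ECs and 1, Kif23, was higher, where 19.7% and 9.90% of 15116 genes were. Over the members the median log2 fold change was -1.46, against -0.06 over all genes. The 7 lower members were Anln, Aurkb, Bub1b, Ccnb2, Cenpf, Nuf2 and Top2a. Without the first or without the second GFP-negative library, Anln was the only member that passed. The test did not pair the sorted libraries, and with replicate number as a block 3 members were lower and 1 higher. With the 5 TPM minimum no member counted in edgeR or in DESeq2 (8.28% of all genes were higher and 7.55% lower in edgeR). In edgeR 10 of the 32 members had an unadjusted p under 0.05, as did 6186 of the 15116 genes. The share among members was the smaller one. DESeq2 gave 6 lower and 1 higher without that minimum.

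Anln, an actin-binding scaffold of the cleavage furrow, had the largest of these differences. It was at 9.81 and 2.06 TPM in the GFP-negative libraries and at 0.00483 and 0.136 TPM in acute ECs (log2 fold change -9.11, SE 1.14, edgeR adjusted p = 0.00383). The GFP-negative library with more Anln also held more of the oligodendrocyte markers, which summed to 2478 and 668 TPM. Oligodendrocytes are known to express Anln outside the cell cycle, and the part of these cells in the value was not tested. The second GFP-negative library stood high for other members, with 17.3 against 0.184 TPM of Nusap1, 5.86 against 0.281 TPM of Tpx2 and 3.99 against 0.238 TPM of Prc1. On protein-coding transcripts alone the level of Nusap1 in that library was 0.472 TPM, and 116 of its reads lay on a processed transcript.

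Within the WT cultures, the 36-cycle method B wells had far less of the mitosis genes than the method A wells. In the model of the 6 WT libraries, 29 of the 34 members were lower and 1, Anln, was higher, where 14.8% and 15% of 13063 genes were. The median log2 fold change was -2.07, against 0.01 over all genes. Cdk1 fell from 19.9 and 31.2 TPM to 4.17 and 4.75 TPM (log2 fold change -2.29, SE 0.15, edgeR adjusted p = 3.20e-07). Top2a fell from 12.2 and 20.4 TPM to 2.76 and 2.44 TPM. Neither gene overlapped between the experiments. Mki67 had the largest decrease, from 1.78 and 3.03 TPM to 0.162 and 0.125 TPM (log2 fold change -3.91, SE 0.18, edgeR adjusted p = 3.22e-08).

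Anln went the other way. It had 22.4 and 23.1 TPM in the 36-cycle method B wells, 7.02 and 11.1 TPM in the method A wells and 15.1 and 11.8 TPM in the 150-cycle wells. Its 2 highest WT values were thus in the experiment with the lowest levels of the other members, and the log2 fold change over method A was 1.28 (SE 0.11, edgeR adjusted p = 2.23e-06). Aurka, Cdca8, Ect2 and Plk1 were the members that did not pass in either direction. With the 5 TPM minimum, 8 members were lower (6.19% of all genes) and Anln higher (8.29%), and 15 were lower without method A well 1.

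Of the other mitotic genes, 57 of 73 were lower in the 36-cycle method B wells than with method A, led by Pttg1 (-4.24), and Wee1, a kinase that inhibits Cdk1, was the only one that was higher (2.54). The median of that list was -1.70. Of the S-phase genes 11 of 25 were lower with a median of -0.98, led by Cdc6, Ccne2 and Tk1, and none was higher. In the list of anaphase-promoting complex core and ubiquitous genes 3 were higher, namely Anapc2, Anapc1 and Anapc7, and none was lower. The experiments also differed in cell type markers. After rescaling to protein-coding genes, the 4 smooth muscle markers summed to 1545 and 1067 TPM with method A, 2297 and 2136 TPM in the 150-cycle wells and 7509 and 7044 TPM in the 36-cycle method B wells. As deposited the sums were 561 and 501, 2178 and 2023, and 3049 and 3068 TPM, mostly Acta2 and Tagln, while Myh11 was at 0.502 to 3.11 deposited TPM in all WT wells. The 8 endothelial markers summed to 12210 and 11808, 4974 and 4878, and 5480 and 5532 TPM in the same order after rescaling, and to 4432 and 5550, 4718 and 4620, and 2225 and 2410 TPM as deposited, so that the order of the 2 method B experiments turned with the scale. None of these markers was at 0, and their part in the difference was not tested.

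The 150-cycle wells differed from the method A wells in both directions, with 6 members higher and 9 lower against 19.0% and 21.5% of 13063 genes, so that both shares were near those of all genes. The members' median log2 fold change was -0.29, against 0.02 over all genes. The 6 that were higher were Plk1, Cdca8, Aurka, Ube2c, Birc5 and Spc25. Plk1, the polo kinase, had 0.760 and 1.60 TPM with method A and 16.1 and 19.7 TPM in the 150-cycle wells, a log2 fold change of 2.89 (SE 0.20, edgeR adjusted p = 2.43e-07). Cdca8 had 1.07 and 1.57 TPM against 13.7 and 14 TPM. Among the 9 that were lower, Mki67 changed most, by -5.87 (SE 0.22, edgeR adjusted p = 3.14e-09), followed by Cenpe (-3.86), Kif4 (-3.33), Cenpf (-3.13) and Top2a (-2.48). With the 5 TPM minimum the 6 higher members stayed, against 14.1% of all genes, and 1 lower member, against 10.4%.

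This division followed transcript length. Over the 34 members, the log2 fold change of the 150-cycle over the method A wells had a Pearson correlation of -0.81 with the logarithm of the mean effective transcript length, which over all 13063 genes was -0.20. The genes of such a correlation share their libraries, and it is given as a description. The 17 shortest members (818 to 2765 bases) had a median log2 fold change of 0.61, with 12 above 0. The 17 longest (2947 to 12775 bases) had a median of -0.74, with 15 below 0. Over the 73 other mitotic genes the correlation was -0.45. For the 36-cycle method B wells against method A it was -0.33 over the members, and 16 of the 17 shortest and 16 of the 17 longest were below 0. A model with an offset for each library's effective lengths left 5 members higher and 9 lower in the 150-cycle wells. Isolation method, mice, facility and read length change together in this comparison, and the part of each was not tested.

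**Figure D3:**
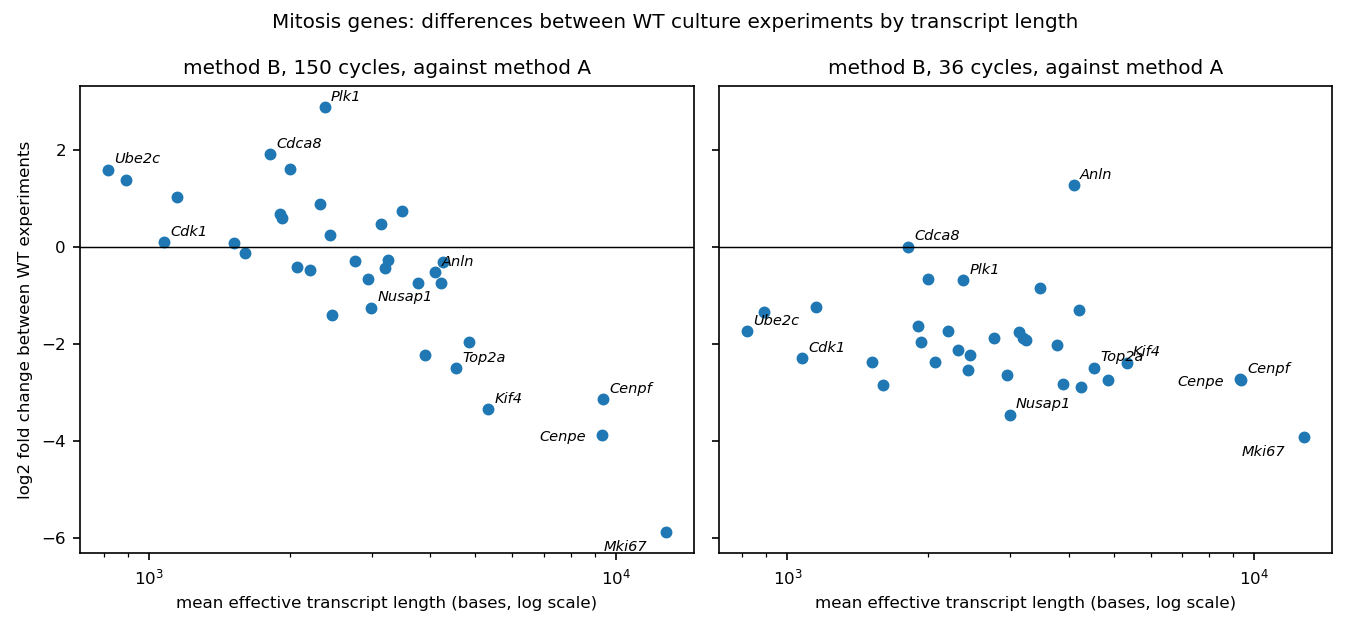
Log2 fold change of each of the 34 mitosis genes in the 150-cycle method B wells (left) and the 36-cycle method B wells (right) relative to the method A wells, against mean effective transcript length in bases (log axis). On the left short transcripts lie above 0 and long ones below, down to Mki67 at -5.87; on the right most genes lie below 0 at every length and Anln lies above.

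The 2 experiments of method B on Ctnnb1flex3/+;Tie2-GFP ECs differed from each other as widely. In the 36-cycle wells 24 members were lower and 3 higher than in the 150-cycle wells, against 17.2% and 20.1% of 13063 genes, with a median log2 fold change of -1.94 (-0.06 over all genes). Plk1 had the largest decrease (-3.56, SE 0.20, edgeR adjusted p = 5.82e-08). The 3 that were higher were Mki67 (1.96), Anln (1.79) and Cenpe (1.14), and with the 5 TPM minimum 19 were lower (11.1%) and Anln alone was higher (10.6%). In the order of rescaled levels, the 36-cycle method B wells were the lowest of the 3 experiments for 30 members, and the method A wells were the highest for 21 and the 150-cycle wells for 12.

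The effect of beta-catenin stabilization on these genes depended on which WT cultures were used for comparison. Over all 4 stabilized and 6 WT wells, no member passed the test in edgeR or in DESeq2, and none had an unadjusted p under 0.05. No gene of the 12971 tested passed in edgeR (0.0%) either, although 1422 had an unadjusted p under 0.05. The median log2 fold change of the members was -0.13, and the fold changes ran from -1.02 for Plk1 to 1.39 for Mki67. These fold changes also followed transcript length, with a correlation of 0.77 over the members and 0.42 over all genes. Without the 150-cycle wells the median was 0.18.

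Within method A the summed levels of stabilized and WT wells overlapped. The rescaled sums were 490 and 497 TPM in stabilized and 427 and 512 TPM in WT wells. Cdca8 was the only member that passed, from 1.07 and 1.57 to 4.93 and 4.80 TPM (log2 fold change 1.18, SE 0.16, edgeR adjusted p = 0.000274), and none was lower. Of the 13369 genes tested, 8.74% were higher and 2.95% lower. The median over the members was -0.17, against 0.00 over all genes, and the member with the lowest value was Nusap1 (-0.73, SE 0.11), which did not reach a 2-fold change. For Cdk1 the log2 fold change was -0.28, with a 95% interval from -0.60 to 0.05. For Top2a it was -0.14, with an interval from -0.33 to 0.05. Without WT well 2, 4 members were higher. With the 5 TPM minimum none was called by edgeR or by DESeq2 (5.02% of all genes were higher and 0.942% lower in edgeR). In edgeR 18 of the 34 members had an unadjusted p under 0.05, as did 8413 of the 13369 genes. The share among members was the smaller one. Deposited TPM values of the 2 groups are not on one scale, since protein-coding genes held 36.3% and 47.0% of the TPM in the WT wells and 61.6% and 65.0% in the stabilized wells.

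Within method B, with the 36-cycle wells as WT, the stabilized wells had more of the mitosis genes. The rescaled sums were 236 and 262 TPM in stabilized and 158 and 151 TPM in WT wells, without overlap. Of the 34 members 14 were higher and none lower, where 4.21% and 1.59% of the 13369 genes were. The median log2 fold change was 0.97, against 0.00 over all genes, and 33 of the 34 lay above 0. Mki67 changed most, from 0.162 and 0.125 to 0.373 and 0.380 TPM (log2 fold change 1.52, SE 0.20, edgeR adjusted p = 0.000978). Ccnb2 went from 0.947 and 1.10 to 2.57 and 2.84 TPM, and Prc1, which crosslinks the central spindle, from 2.01 and 1.60 to 4.80 and 3.86 TPM. The groups did not overlap for these 3 genes, although Mki67 stayed under 1 TPM throughout. Nusap1 went from 0.433 and 0.465 to 1.08 and 1.23 TPM (log2 fold change 1.43, SE 0.14), and the value of Cdk1 was 1.40 (SE 0.15).

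With the 5 TPM minimum, Top2a, Cdk1 and Ube2c counted as higher, where 1.07% of all genes did, and 0.254% were lower. Top2a went from 2.76 and 2.44 to 6.19 and 7.10 TPM (log2 fold change 1.36, SE 0.09, edgeR adjusted p = 4.71e-05). Cdk1 went from 4.17 and 4.75 to 9.53 and 12.4 TPM, and Ube2c from 3.42 and 3.27 to 6.35 and 8.03 TPM. All 3 genes were without overlap. Anln was the only member below 0, with 22.4 and 23.1 TPM in WT and 17.6 and 14.1 TPM in stabilized wells (-0.36, SE 0.07). By role, 3 of 3 chromosome structure genes, 3 of 6 kinases and cyclins, and 2 of 3 genes of protein degradation passed. Of the other mitotic genes 26 of 73 were higher and none lower, led by Pbk, Fam83d and Iqgap3, and of the S-phase genes 4 of 25 (Cdc6, Cdc45, Ccne1 and Tk1) were. None of the 24 anaphase-promoting complex core and ubiquitous genes was called.

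When the 150-cycle wells took the place of the 36-cycle WT wells, the same 2 stabilized wells had 15 members lower and 6 higher. Of the 12944 genes tested, 1620 were lower and 2576 higher, so the share of members that were higher was near that of all genes. The median log2 fold change of the members was -0.84, against -0.001 over all genes. Unlike the 36-cycle WT wells, the 150-cycle wells also differed from the stabilized wells in facility and read length. Cdk1 then had a value of -0.94, Ube2c of -2.02 and Ccnb2 of -1.15. Both sets of WT wells came from the same genotype and isolation method, and they differed from each other by a median of -1.94, more than the 0.97 between stabilized and WT wells. The increase in method B therefore rests on the experiment taken as WT. Whether the stabilized method B wells and the 36-cycle WT wells belonged to 1 experiment is not given in the sources used here.

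**Figure D4:**
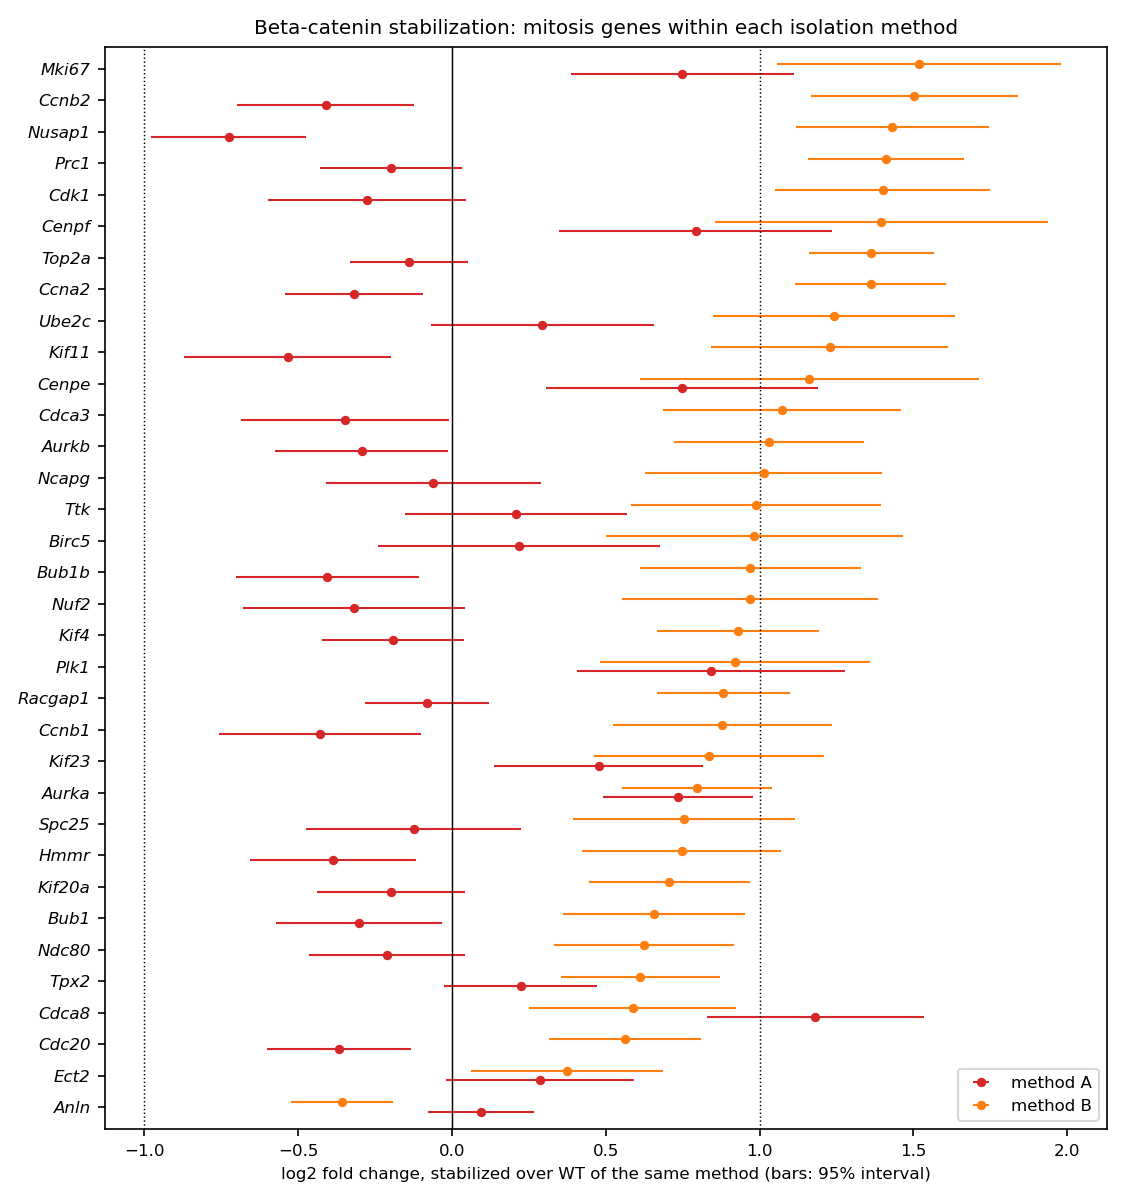
Log2 fold change of each mitosis gene in stabilized over WT wells with its 95% interval, for method A (red) and for method B against the 36-cycle WT wells (orange), with dotted lines at a 2-fold change. In method B 33 of 34 genes lie above 0, and in method A the genes lie on both sides of 0 with a median of -0.17.

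The difference between the 2 methods was tested as an interaction of stabilization and method in the 8 libraries read for 36 cycles. Of the 34 members 15 had a larger effect in method B and none had a smaller one, where 6.26% and 9.08% of 13369 genes did, at an adjusted p under 0.05 and more than a 2-fold difference in effect. The median of the interaction was 0.95 over the members and 0.03 over all genes. It was largest for Nusap1 (2.16, SE 0.18, edgeR adjusted p = 9.77e-05) and lowest for Cdca8 (-0.59, SE 0.22). Because WT method A cells were C57BL/6J and the method B controls were Ctnnb1flex3/+;Tie2-GFP, the method and the controls cannot be told apart in this test. Its method B effect also rests on the 36-cycle wells taken as WT.

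Open chromatin at the starts of these genes was measured by ATAC-seq in 10 libraries, with 2 from acute ECs, 6 from WT wells and 2 from stabilized wells. By the methods text, 2 of these WT libraries came from method A and 4 from method B. Both stabilized libraries came from method B, so the method map of the stabilized RNA-seq wells does not hold for them. The methods text gives the same WT mice for each method as above. The RefSeq promoter table (GRCm38.p6, the build of the peaks) held 30 of the 34 members. All 30 had a peak within 500 bases of the start in both acute libraries and in all culture libraries except WT replicate 2, in which Bub1 had none. Over 16522 protein-coding genes 53.4% to 63.6% had such a peak. The median fold enrichment of the members' peaks was 15.3 and 16.2 in the acute libraries, against 13.0 and 12.6 over all promoter peaks, and 12.4 to 22.4 in the 8 culture libraries, against 9.38 to 15.2.

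Each promoter peak was then divided by its library's median over the 8305 genes with a peak in every library. Of 29 members with such a peak, 10 were higher in all 8 cultures than in both acute libraries, where 20.0% of all genes were, and 2 were lower, where 15.7% were. The 10 that were higher included Cdk1, Ube2c, Cdc20, Spc25, Plk1 and Bub1b. Bub1b had relative values of 0.494 and 0.328 in acute ECs and 0.743 to 1.45 in the cultures. Anln and Prc1 were the 2 that were lower. The peak at the Anln start had relative values of 1.29 and 1.32 in acute ECs, where its RNA was at 0.136 TPM or less, and of 0.486 to 0.819 in the cultures, where its RNA was at 7.02 TPM or more.

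Promoter elements were searched on both strands in the 250 bases before the start. The CHR was searched as TTTGAA or TTTAAA, the CCAAT box as CCAAT, and an E2F element as TTTCCCGC, TTTCGCGC, TTTGCCGC or TTTGGCGC. A CCAAT box was present in 25 of the 30 members and in 39.2% of the 16522 promoters, and 17 members held it at 2 or more places, as did 12.9% of all. A CHR was present in 14 of 30 (25.5% of all), and both elements in 13 of 30 (10.6%). The E2F element was found in 1 member, Cdk1, and in 2.74% of all. A CCAAT box was held by 33 and a CHR by 29 of 56 other mitotic genes, and by 12 and 5 of 20 S-phase genes. The E2F element was in 6 of those 20. Anln, Ndc80, Nuf2 and Nusap1 held neither a CHR nor a CCAAT box in this window.

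The last 100 bases before the start are shown for 5 members, chosen after their values were seen to show CCAAT boxes with a CHR in this window (Top2a and Kif11), CCAAT boxes without a CHR in it (Ccnb2 and Spc25), and the window of Anln, the member that moved apart from the rest. Capitals mark CCAAT boxes (CCAAT, or ATTGG on the other strand) and the CHR (TTTGAA, or TTCAAA on the other strand). Sequences are from RefSeq (GRCm38.p6) and read 5′ to 3′ on the strand of the gene, all from the minus strand except Kif11, and none overlaps an exon of the annotation.
Top2a, chr11:99024190-99024289: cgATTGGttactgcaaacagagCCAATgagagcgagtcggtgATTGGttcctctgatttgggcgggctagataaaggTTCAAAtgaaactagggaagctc
Kif11, chr19:37376282-37376381: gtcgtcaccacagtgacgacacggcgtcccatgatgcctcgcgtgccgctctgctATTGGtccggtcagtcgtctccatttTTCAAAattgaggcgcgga
Ccnb2, chr9:70421555-70421654: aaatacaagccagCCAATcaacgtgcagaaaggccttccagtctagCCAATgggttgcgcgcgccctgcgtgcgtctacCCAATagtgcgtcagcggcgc
Spc25, chr2:69206214-69206313: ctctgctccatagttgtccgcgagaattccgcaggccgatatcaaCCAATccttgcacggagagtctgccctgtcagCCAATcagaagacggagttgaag
Anln, chr9:22389207-22389306: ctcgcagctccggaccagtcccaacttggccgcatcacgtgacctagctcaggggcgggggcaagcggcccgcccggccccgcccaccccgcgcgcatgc

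In Top2a the CCAAT boxes begin 98, 78 and 58 bases before the start and the CHR 23 bases before it. In Kif11, the motor that pushes spindle poles apart, a CCAAT box begins at 45 and a CHR at 19 bases before the start. Ccnb2 holds 3 CCAAT boxes, at 87, 54 and 21 bases, and its CHR lies farther out in the 250 bases searched, and Spc25 holds 2, at 55 and 23 bases. The Anln window holds neither element. A match of letters is a description of the sequence and not a measured site.

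**Figure D5:**
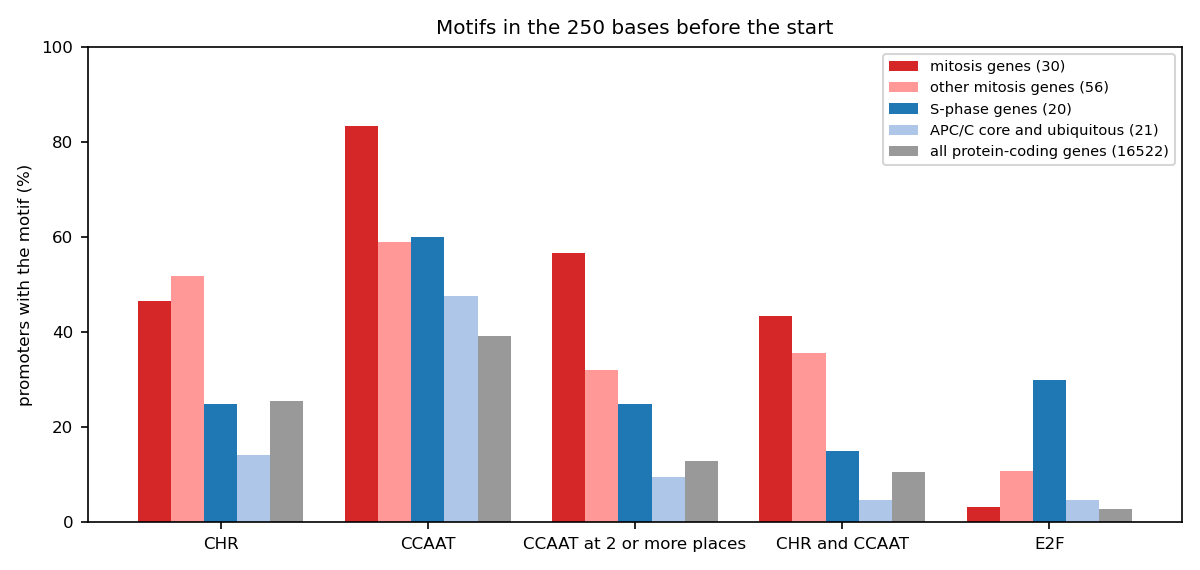
Share of promoters (percent, y axis) with each element in the 250 bases before the start, for 30 mitosis genes, 56 other mitotic genes, 20 S-phase genes, 21 anaphase-promoting complex core and ubiquitous genes and all 16522 protein-coding genes of the table. A CCAAT box at 2 or more places is in 17 of the 30 mitosis genes and in 12.9% of all genes.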

How the data were processed

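RNA-seq was available for 14 libraries and ATAC-seq peak lists for 10. Per the labels and the methods of the study, the authors quantified transcripts of GENCODE M21 (GRCm38) with Salmon 0.14.0, and deposited estimated counts, effective lengths and TPM per transcript. Counts and TPM were summed here per gene identifier over 21847 protein-coding genes. The authors called ATAC-seq peaks per library with MACS2 2.1.2 after HISAT2 2.1.0 alignment, and deposited for each peak a score, a fold enrichment (ratio) and -log10 p-values and q-values; only the fold enrichment and position were used here.

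Estimated counts were rounded, filtered with filterByExpr, scaled by TMM and tested with edgeR 4.0.16's quasi-likelihood test (R 4.3.3) with Benjamini-Hochberg adjustment over all genes tested. The 3 WT experiments were compared in a model of the 6 WT libraries, and the effect of stabilization by method in a model of the 8 cultures read for 36 cycles. Samples were grouped by their GEO labels, and isolation methods follow the methods text of the study, with which the labelled genotypes match but from which a legend of the study differs for WT wells 5 and 6. Standard errors are those of the log2 fold change. Wells of 1 experiment shared their animals, so p-values measure the spread between these samples, which may be technical. Members were named when they were the 2 with the highest mean TPM over the cultures in a role, when they missed the test between WT culture and acute ECs, when they were among the 5 largest called changes between stabilized and WT wells, or when they had the largest or smallest change of a comparison; of the other lists, the 3 largest called changes in each direction and genes called against the direction of most members. Aurkb, Bub1b, Plk1, Kif11 and some others were named after their values were seen. The members, lists and tests were chosen with earlier results of these data known. The test was tested on simulated data. Alternatives were DESeq2 1.42.0, library size scaling, no filter on low counts, no TPM minimum, a length offset, other sets of cultures, a replicate block and each library left out; a TPM minimum on rescaled TPM and a restriction to protein-coding transcripts were added after seeing the data. Samples of cerebrum alone were not analysed here.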

Additional observations from a re-analysis of the deposited data

Results flagged for a closer look

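In the cultures read for 36 cycles, the change from WT to stabilized wells differed between the 2 isolation methods for 15 of the 34 mitosis genes. The test was that of the interaction (edgeR's quasi-likelihood test, adjusted p under 0.05 and more than a 2-fold difference in effect). All 15 had the larger effect in method B. On the log2 scale the difference of method B minus method A was 2.16 for Nusap1, 1.91 for Ccnb2, 1.76 for Kif11, 1.68 for Ccna2, 1.68 for Cdk1 and 1.61 for Prc1. It was 1.5 for Top2a, 1.42 for Cdca3, 1.37 for Bub1b, 1.32 for Aurkb and 1.31 for Ccnb1, and 1.29 for Nuf2, 1.13 for Hmmr, 1.12 for Kif4 and 1.07 for Ncapg. The WT cells of method A were C57BL/6J and those of method B Ctnnb1flex3/+;Tie2-GFP, so the method and the WT mice cannot be told apart. The method B effect also depended on the WT experiment. With the 150-cycle WT wells of the same genotype and method, it reversed for Aurkb, Ccna2, Ccnb2, Cdca3, Cdk1, Ncapg, Nusap1 and Prc1. All of these are among the 15, and their larger effect in method B rests on the 36-cycle wells taken as WT. No library stood apart from its group in the 68 member and group combinations of 4 or more libraries that were examined for it. These groups pool wells of both isolation methods, whose levels differ widely, so a deviating library could have been missed.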

How the results depend on the processing

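Over 168 member and comparison pairs, 1072 of 1133 values under alternatives that kept every library of the groups they compared stayed on their side of the threshold, 52 lost their call and 9 reversed. With a library left out, 1040 of 1108 kept their call and 68 lost it. The 9 reversals all came from taking the 150-cycle wells as WT for stabilized method B wells, with log2 fold changes of -2.02 for Ube2c, -1.48 for Aurkb, -1.37 for Ccna2, -1.34 for Cdca3, -1.15 for Ccnb2, -0.94 for Cdk1, -0.72 for Nusap1, -0.58 for Ncapg and -0.51 for Prc1. Members called then numbered 6 higher and 15 lower, where 2576 and 1620 of 12944 genes were. With the 5 TPM minimum 2 members were higher and 15 lower.

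The 5 TPM minimum set most of the smaller counts. Without it, members called higher numbered 28 in WT culture and 30 in stabilized culture against acute ECs, 1 in ECs against GFP-negative cells (with 7 lower), 3 in the 36-cycle against the 150-cycle wells, 1 in stabilized cells of method A and 14 of method B. Members called lower than with method A were then 9 in the 150-cycle and 29 in the 36-cycle wells. With the minimum on rescaled TPM the counts were 6, 14, 1, 1 and 6 higher for WT culture, stabilized culture, ECs against GFP-negative cells, and stabilized cells of method A and method B, and 6 and 24 lower for the 150-cycle and 36-cycle wells. With the minimum as deposited, 8 members were called from the method A wells alone against acute ECs and 21 from the 150-cycle wells alone. For ECs against GFP-negative cells, Kif23 was not called with library size scaling or protein-coding transcripts (0 higher), and 4 members were lower without the filter, 4 with the length offset and 3 with the replicate block. In a window of 100 bases 0 members held the E2F element and 8 both a CHR and CCAAT box.

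With each library left out, members called higher in WT culture ranged from 19 to 28 and in stabilized culture from 28 to 30. Against GFP-negative cells they ranged from 0 to 1 higher and 1 to 4 lower, and with the 5 TPM minimum from 0 to 1 in either direction. Members lower in the 150-cycle than in the method A wells with that minimum ranged from 1 to 2, and in the 36-cycle wells from 8 to 15. Those higher in the 36-cycle than in the 150-cycle wells ranged from 2 to 4. Stabilized cells had 1 to 4 higher in method A and 10 to 20 in method B, and the interaction 13 to 19. Replicate numbers did not pair the stabilized with the WT wells. Deviations of their same-numbered libraries correlated at 0.57, 0.57, 0.066 and 0.13, and not every library matched its own number best. With the replicate block 31 members were higher in WT culture and 32 in stabilized culture against acute ECs, none was called between stabilized and all WT cultures, and 63 of 67 member values kept their call. Pairs of wells limit the precision, and 29 members below 1 TPM in acute ECs rest on few reads there.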
